A study of Mus musculus with 24 samples.

Results

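Among the promoters of 4T1 spheroids that carried H3K9ac in every library, 852 of 9973 promoter regions ranked highest in scramble cells. They were chosen on measured values: a region was kept if its rank by fold enrichment in each of the 3 scramble libraries lay above its rank in all 9 knockout libraries, which held for 8.54% of the promoter regions. The contrast of scramble with the other 9 libraries is therefore a description and was not tested. A promoter region was a stretch of overlapping peaks, called in all 12 libraries, that lay within 1 kb of the transcription start site of a protein-coding gene. The rank is a percentile within the library, so 100 is the strongest promoter region of that library and 50 the middle one. Of 38586 regions in all, 12098 were called in every library and 9973 of these were promoter regions.

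H3K9ac is the acetylation of lysine 9 on the tail of histone H3. It is laid down by acetyltransferases such as KAT2a (GCN5) from acetyl-CoA, is removed by histone deacetylases, and is found at the promoters of active genes, mostly on the nucleosomes that flank the start site. CPT1a carries long-chain fatty acids into mitochondria, where their oxidation yields acetyl-CoA, and acetate can supply acetyl-CoA by another route.

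The study asked whether the loss of CPT1a or KAT2a alters histone acetylation in spheroids of 4T1, a mouse mammary carcinoma line. The 12 H3K9ac libraries came from 4 groups of 3, all collected on day 5, and all lines were puromycin-selected 4T1 cells with a doxycycline-inducible Cas9 and an sgRNA. The scramble group carried a non-targeting guide, the CPT1a KO and KAT2a KO groups carried a guide against the named gene, and these 3 groups were grown with 75 µM palmitate. The CPT1a KO + acetate group received 5 mM acetate, and its labels do not give palmitate, although the study describes spheroids kept in palmitate for CPT1a loss with and without acetate. Which of the guides a library carried, and whether the replicates were separate cultures, was not given in the sources used here. The peak lists held 29176 to 34370 peaks in scramble and 16212 to 24639 in the other 9 libraries, without overlap. The calling depth recovered from them, which is the mean coverage of the genome at which peaks were called, was 1.87 to 2.52 in scramble and 0.554 to 1.91 in the other 9 libraries. The depths overlapped: CPT1a KO + acetate replicate 3, at 1.91, was deeper than scramble replicates 2 and 3, at 1.87 and 1.90. No batch was stated, so batch and group cannot be told apart. Epithelial identity was visible in the lists: 6 of 6 epithelial markers had a promoter peak in all 12 libraries, whereas 6 of 8 markers of other cell types, those of immune and endothelial cells and stromal Pdgfrb, had none in any library. The other two, alveolar Sftpc and stromal Col1a1, had a promoter peak in 12 and 11 libraries.

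Promoters with a wide separation that are shown here were poor in CpG. The 250 bases before the start site are shown for 5 of the 6 members with the largest gap, where the gap is the lowest scramble rank minus the highest rank of the other 9 libraries, and for the 2 promoters ranked lowest in scramble by the widest margin. They were read from GRCm38, run 5′ to 3′ on the strand of the gene and have every CpG in capitals. The windows are chr3:19957034-19957283 (plus strand), chr14:101840569-101840818 (plus), chr11:87662837-87663086 (plus), chr8:121115921-121116170 (plus), chr1:189215218-189215467 (minus), chr2:164911758-164912007 (minus) and chr11:72607069-72607318 (plus).
Cp: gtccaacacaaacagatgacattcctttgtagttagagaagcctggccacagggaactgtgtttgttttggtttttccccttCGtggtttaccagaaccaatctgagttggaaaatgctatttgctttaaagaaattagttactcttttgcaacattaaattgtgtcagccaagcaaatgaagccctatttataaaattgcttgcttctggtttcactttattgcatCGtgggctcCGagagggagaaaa
Lmo7: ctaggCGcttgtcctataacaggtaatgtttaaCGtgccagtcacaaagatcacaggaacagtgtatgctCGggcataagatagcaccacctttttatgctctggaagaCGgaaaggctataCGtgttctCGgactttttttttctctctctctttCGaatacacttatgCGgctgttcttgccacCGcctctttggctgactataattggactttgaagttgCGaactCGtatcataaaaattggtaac
Rnf43: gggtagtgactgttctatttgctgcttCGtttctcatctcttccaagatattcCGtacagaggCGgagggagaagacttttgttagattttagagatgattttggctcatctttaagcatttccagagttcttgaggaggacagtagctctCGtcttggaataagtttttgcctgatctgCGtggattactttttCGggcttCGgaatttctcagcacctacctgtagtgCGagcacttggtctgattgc
Foxc2: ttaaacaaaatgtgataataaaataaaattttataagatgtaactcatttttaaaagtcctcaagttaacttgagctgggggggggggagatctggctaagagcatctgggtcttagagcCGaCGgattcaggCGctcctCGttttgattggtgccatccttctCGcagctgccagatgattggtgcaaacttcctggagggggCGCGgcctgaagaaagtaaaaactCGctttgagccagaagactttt
Kcnk2: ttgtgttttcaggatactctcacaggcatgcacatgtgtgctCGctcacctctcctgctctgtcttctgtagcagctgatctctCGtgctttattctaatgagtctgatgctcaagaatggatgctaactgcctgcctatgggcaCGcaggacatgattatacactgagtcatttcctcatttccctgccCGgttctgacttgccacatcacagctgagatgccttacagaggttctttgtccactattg
Zfp335: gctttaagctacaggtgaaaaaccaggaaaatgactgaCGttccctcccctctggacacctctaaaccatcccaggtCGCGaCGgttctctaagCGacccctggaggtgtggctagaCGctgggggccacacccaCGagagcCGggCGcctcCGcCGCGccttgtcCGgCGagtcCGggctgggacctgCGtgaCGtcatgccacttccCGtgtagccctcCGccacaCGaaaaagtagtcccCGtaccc
Ube2g1: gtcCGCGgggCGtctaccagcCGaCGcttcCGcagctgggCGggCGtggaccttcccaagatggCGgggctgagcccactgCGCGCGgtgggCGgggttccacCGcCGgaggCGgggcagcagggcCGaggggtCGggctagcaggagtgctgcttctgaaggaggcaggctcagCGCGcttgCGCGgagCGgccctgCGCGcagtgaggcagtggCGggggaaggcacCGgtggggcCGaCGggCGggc

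The 5 members held 3, 11, 8, 8 and 4 CpGs in these windows, in the order shown. Zfp335 and Ube2g1, the 2 promoters ranked lowest in scramble, held 21 and 30.

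Plscr2, a gene of the phospholipid scramblase family, had the largest gap of all members, 54.1 percentile points. Its region on chromosome 9 ranked at 97.8, 91.5 and 94.5 in scramble, at 26.5, 27.3 and 18.4 in CPT1a KO, at 36.6, 31.0 and 35.4 in CPT1a KO + acetate and at 29.5, 37.4 and 33.3 in KAT2a KO. Among the strongest promoters of the scramble libraries, it lay in the lower part of all 9 others. The deposited fold enrichment, which is the peak height over the local background of the same library, was 33.3 ± 2.02 in scramble (SD, n = 3) and 11.1 to 25.6 in the other 9 libraries.

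Cp encodes ceruloplasmin, the copper-carrying ferroxidase of plasma. Its region (chr3:19956442-19960981) ranked at 77.7, 61.1 and 75.9 in scramble, at 3.17, 4.83 and 3.20 in CPT1a KO, at 9.19, 8.73 and 12.9 with acetate and at 13.8, 15.3 and 12.2 in KAT2a KO. It was thus a middling to strong promoter in scramble and one of the weakest in CPT1a KO, where its 3 ranks lay below the 6 of the remaining groups. Rnf43, a ubiquitin ligase that removes Wnt receptors from the cell surface, also ranked middling to strong in scramble and low elsewhere (chr11:87662566-87667285), but its ranks in the 3 knockout groups overlapped. Its ranks were 74.7, 55.7 and 78.5 in scramble and ran from 5.29 to 16.8 in the other 9, with a median of 11.1.

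Lmo7, a LIM domain protein of cell junctions, ranked at 96.3, 90.9 and 97.1 in scramble, at 6.82, 18.9 and 20.8 in CPT1a KO, at 32.6, 35.8 and 33.4 with acetate and at 36.8, 22.4 and 51.4 in KAT2a KO (chr14:101838308-101844820). Here too, the 3 CPT1a KO libraries were the lowest of the 12. Foxc2, a forkhead transcription factor, ranked at 86.3, 82.7 and 75.1 in scramble and at 9.01 to 37.4 elsewhere (chr8:121115979-121123044). Its strongest peaks lay away from the start site, at a median of 2554 bp in scramble and 1873 bp in the others, and its region was, at 55.4% GC, the only one of the 6 above the median of all promoter regions. Kcnk2, the potassium channel TREK-1, ranked at 94.9, 70.3 and 76.2 in scramble and at 0.787 to 35.3 elsewhere, with the lowest value in CPT1a KO replicate 3 (chr1:189213072-189216539).

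The next members by gap covered unrelated functions. Tnrc6b, which acts in silencing by microRNAs, had a mean rank of 69.8 ± 4.95 in scramble and 21.1 ± 9.55 over the other 9 libraries (SD). The shared region of Ptcd3, a mitochondrial ribosome protein, and Polr1a, the largest subunit of RNA polymerase I, stood at 87.3 ± 1.32 and 41.1 ± 10.2, and that of the Golgi gene Golph3l at 69.1 ± 6.70 and 20.2 ± 6.66. Gpx8, a peroxidase of the endoplasmic reticulum, had 89.0 ± 2.75 and 38.3 ± 10.2. Resf1, a retroelement silencing factor, had 94.4 ± 3.38 and 46.9 ± 11.7. Mat2b, the regulatory subunit of the enzyme that makes S-adenosylmethionine, had 78.2 ± 3.83 and 38.5 ± 6.38, and Scp2, a sterol carrier protein, had 77.0 ± 3.31 and 30.6 ± 10.2. Pdia4, a disulfide isomerase of the endoplasmic reticulum, had 2 adjacent regions among the members. One at chr6:47813606-47815014 ranked at 43.6, 37.0 and 36.7 in scramble and at 2.49 to 9.27 elsewhere, so ranking highest in scramble did not require a strong peak.

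**Figure D1:**
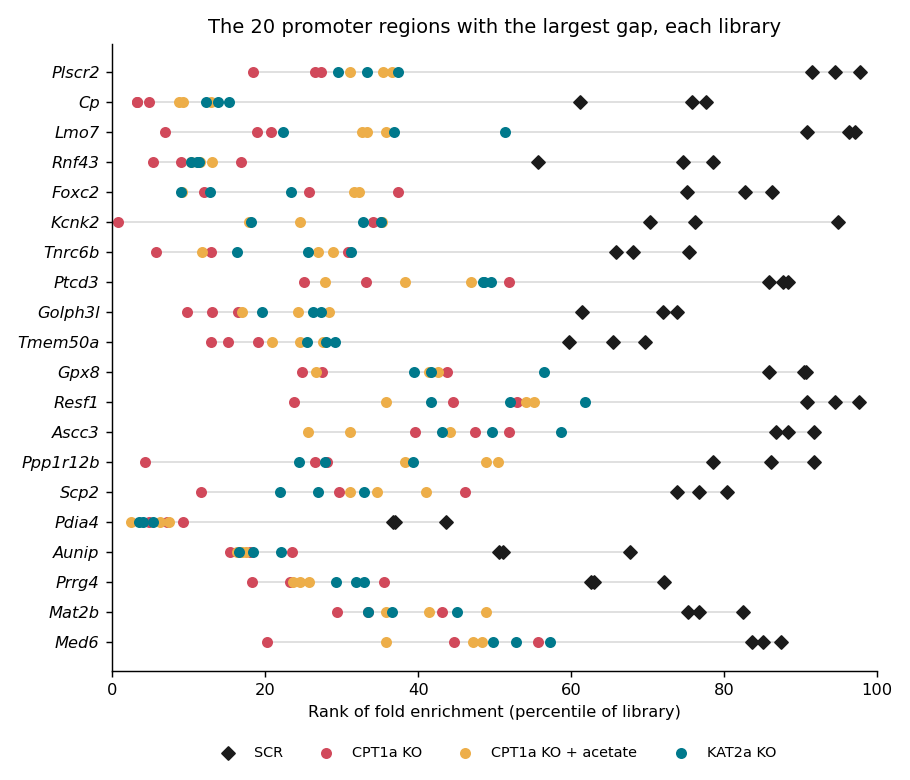
Ranks by fold enrichment (percentile of the library, x axis) of the 20 members with the largest gap, 1 row a region and 1 point a library, with scramble as black diamonds. The 3 scramble points of Plscr2 lie at 91.5 to 97.8 and its 9 others at 18.4 to 37.4, and those of Pdia4 at 36.7 to 43.6 and 2.49 to 9.27.

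Most members were separated by far less. The gap had a median of 5.68 percentile points with quartiles of 2.44 and 11.3. It reached 10 in 249 members and 20 in 56. Just inside the rule were Rassf8, Zfp72 and Tmem177, each with a gap of 0.00501. Just outside were Luc7l and Nemp1, with a tie at ranks of 98.4 and 49.5, and Trps1, whose lowest scramble rank was 99.99 and highest other rank 100.0. A member near the limit was therefore not distinct from a non-member.

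Members were found at all parts of the rank scale. Their median rank was 74.8, 70.8 and 74.0 in the scramble libraries, 38.7, 36.0 and 34.3 in CPT1a KO, 38.3, 35.8 and 40.1 with acetate, and 41.6, 41.5 and 39.8 in KAT2a KO. Averaged over the scramble libraries, the members had quartiles of 48.6 and 89.0. At the top stood Tfap2a, Irx2 and Arrdc3. Irx2, a homeobox gene, ranked at 99.9 ± 0.135 in scramble (SD, n = 3) and at 79.2 to 99.3 elsewhere, and Arrdc3, an arrestin-domain gene, at 99.8 ± 0.143 and 85.6 to 96.9. Near the bottom stood Vkorc1l1 and Clasp2, with mean scramble ranks of 5.77 and 5.84.

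**Figure D2:**
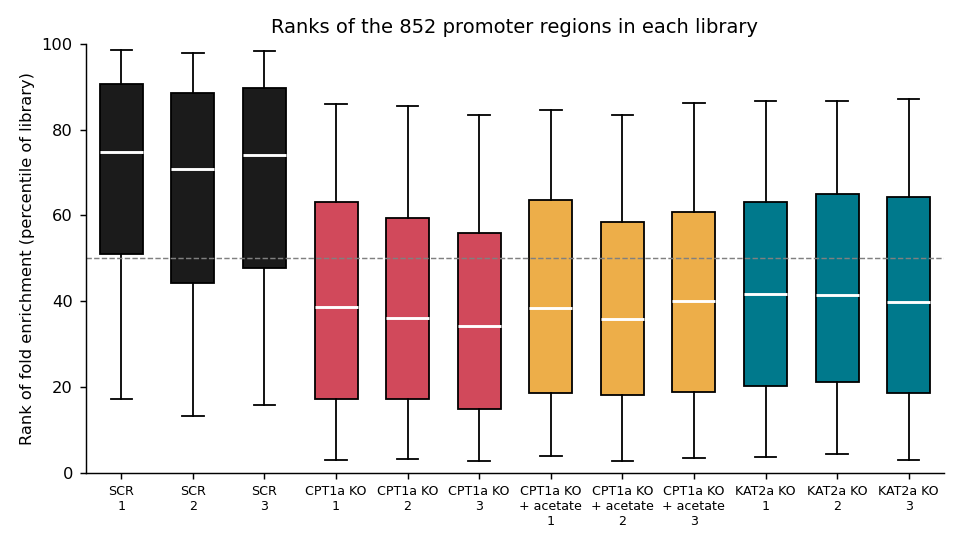
Ranks by fold enrichment (percentile of the library, y axis) of the 852 members in each of the 12 libraries, with boxes between the quartiles, a white line for the median and whiskers from the 5th to the 95th percentile; the dashed line is at 50. Medians lie at 70.8 to 74.8 in scramble and 34.3 to 41.6 in the other 9 libraries, a gap that the rule selects for.

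Fold enrichments separated the groups far less than ranks did. Over the 852 members the median deposited fold enrichment was 23.3, 23.3 and 24.1 in the scramble libraries, and 22.3 ± 3.87 over the medians of the other 9 libraries (SD), with the lowest in CPT1a KO replicate 3 (14.7). Over all 9973 promoter regions the same median was 18 ± 0.381 in scramble (n = 3) and 25.3 ± 3.84 in the other 9. The members thus had about the same fold enrichment in both, against promoters whose fold enrichment was mostly lower in the scramble libraries. Only 13 members, 1.53%, had a fold enrichment in all 3 scramble libraries above all 9 others. These were Plscr2, Cp, Lmo7, Rnf43, Foxc2, Pdia4, Sox5, Chd2, Ankrd28, Fndc3a, CT030661.1, 2010111I01Rik and 1 region not reported here, and Sox5, Chd2, Ankrd28, Fndc3a and CT030661.1 are named after their values were seen. No promoter region outside the members met this condition. Since the deposited values were not scaled between libraries, the ranks order promoters within a library and do not measure the amount of H3K9ac.

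**Figure D3:**
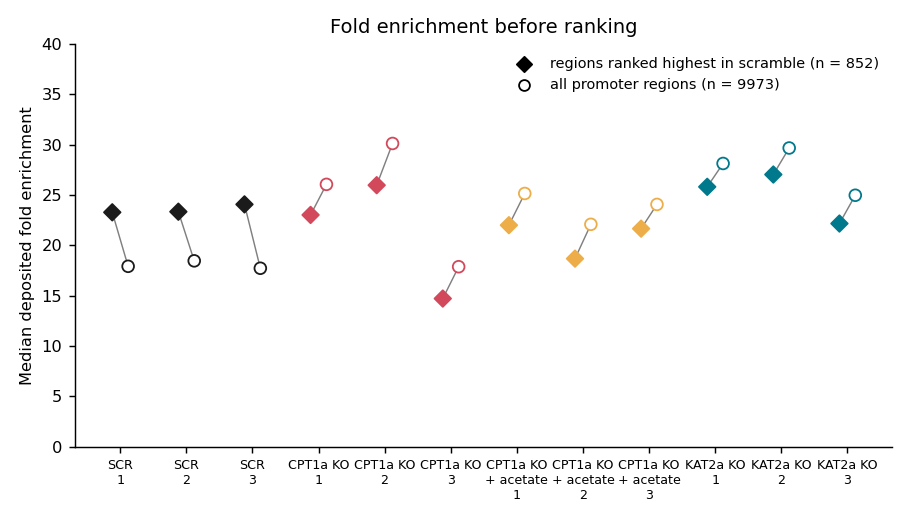
Median deposited fold enrichment (y axis) in each of the 12 libraries, for the 852 members (filled diamonds) and all 9973 promoter regions (open circles). The members lie above all promoter regions in the scramble libraries (23.3 against 17.9 in replicate 1) and below them in the other 9 (23 against 26.1 in CPT1a KO replicate 1).

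Pileup, the height of the peak, and local background were recovered from fold enrichment and p under the formulas of MACS2 and divided by the calling depth. With pileup alone ranked, 724 of the 852 members (85%) had all 3 scramble ranks above the other 9, beside 15.8% of all promoter regions. With the background alone ranked, none of the members had scramble ranks all above, beside 0.983% of all promoter regions. In 17 members (2.00%) they were all below, beside 0.642% of all. Both quantities come from the fold enrichment that chose the members, so nothing is read from these counts. The median background of the members was 1.02 ± 0.0305 times the depth in scramble (n = 3) and 1.05 ± 0.0742 times in the other 9 libraries.

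Members were poorer in GC than other promoters. The GC content of the regions had a median of 46.0% in members (quartiles 43.9% and 48.6%), 50.5% in the other promoter regions (47.4% and 53.9%) and 54.5% in the 480 regions ranked lowest in scramble (51.0% and 57.9%). With the promoter regions cut into 10 classes of equal size by GC content, 29.1% of the class with the lowest GC content were members and 0.802% of the class with the highest. For regions ranked lowest in scramble the order was turned, with 0.802% and 14.3%. The libraries differed in this respect over all promoters: across the 9973 promoter regions, the Spearman correlation of fold enrichment with GC content was -0.404, -0.357 and -0.445 in scramble and between -0.0935 and -0.219 in the other 9 libraries. These correlations are across regions that share a library and are given as a description.

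**Figure D4:**
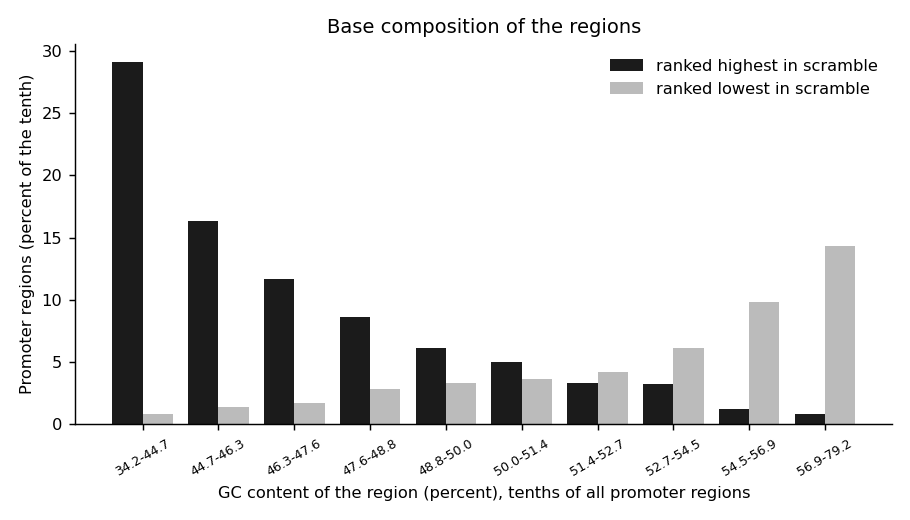
Share of promoter regions (y axis, percent) that ranked highest (black) or lowest (grey) in scramble, in 10 classes of equal size by GC content (x axis, percent). The black bars fall from 29.1% to 0.802% as GC content rises and the grey bars rise from 0.802% to 14.3%.

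The GC content moved with the result, and its part in it was not tested. The rule was repeated with GC content taken into account. With each region ranked only among promoter regions of like GC content (50 bins), 602 regions (6.04%) met the rule and 446 of the 852 members were among them. With the median rank of each bin subtracted instead, 685 regions (6.87%) met it, 368 of them members. The members with the largest gaps mostly stayed: ranking within bins kept 18 of the 20 with the largest gap, all but Pdia4 and Med6, and 52 of the 56 with a gap of 20 or more. Subtracted bin medians kept 47 of these 56, and mean fold enrichment kept 37. The value given to a region mattered as well. With the mean fold enrichment of its peaks in place of the highest, 541 regions met the rule and 311 members stayed. Several peaks in 1 region were more frequent on average in scramble, in 52.2% ± 14.2 of members and 53.7% ± 11.6 of all promoter regions (SD, n = 3). In the other 9 libraries the shares were 28.6% ± 7.61 and 26.3% ± 7.47. Single libraries overlapped, with 36.0% and 40.4% in scramble replicate 1 and 43.2% and 41.2% in CPT1a KO + acetate replicate 2. At equal calling depth 780 members stayed, and with peaks ranked by -log10 p 799 stayed. Under all 4 of subtracted bin medians, mean fold enrichment, equal depth and -log10 p, 123 members remained, among them 16 of the 20 with the largest gap.

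Windows around the start sites were poorer in CpG too. In windows from 250 bases before to 50 after the start site, members held a median of 21 CpGs and all promoter regions 25, while the regions ranked lowest in scramble held 29.5. Motifs were searched on both strands. GGGCGG, the GC box bound by SP factors, was present in 58.8% of members and 68.7% of all promoter regions, and in 79.2% of the regions ranked lowest in scramble. TATAAA was present in 6.10% and 4.37%, CCAAT in 37.4% and 33.0%, and the AP-1 motif TGANTCA in 6.46% and 4.45%. The ETS motif CCGGAAG was found in 19.8% and 18%, the E-box CACGTG in 10.1% and 9.36%, and the CRE TGACGTCA, which neither contains nor is contained in TGANTCA, in 3.52% and 2.89%. Shares of the NF-kB motif were 7.04% and 6.0%, those of NRF1 1.41% and 1.88% and those of YY1 1.64% and 2.14%. A match is a description of the window.

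Widths of the merged regions were alike, with a median of 3463 bp in members and 3370 bp in all promoter regions. The length called as peaks in a region differed between libraries. Over all promoter regions its median was 2594 to 3119 bp in scramble and 1533 to 2407 bp in the other 9 libraries. The strongest summit lay within 1 kb of a start site for 89.6% of members in scramble and 95.4% in the other libraries, beside 92.9% and 97.9% of all promoter regions. Its median distance to the start site was longer in scramble, at 541 bp against 306 bp in members and 476 bp against 275 bp in all, so this was not particular to members. Start sites of 2 or more genes were present in 17.1% of members and 15.5% of all. By chromosome, the share of members ran from 3.37% on chromosome 19 (12 of 356) to 16.6% on X (47 of 283), with 14.5% on chromosome 13 and 14.2% on chromosome 14.

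Some members were neighbours. The longest run, 6 promoter regions in a row at chr12:55077846-55304998, held Srp54a, Srp54b and Srp54c, which encode the signal recognition particle subunit that binds signal sequences, together with Fam177a, 1700047I17Rik2 and 1110008L16Rik. Srp54a ranked at 90.1 ± 2.60 in scramble and 35.6 to 65.8 elsewhere, and Srp54b at 85.6 ± 7.74 and 24.2 to 70.4. A run of 4 at chr17:21566422-21735809 held Zfp948, Zfp983, Zfp760 and Zfp229, and a run of 3 on X held Ubl4a, Fam3a and G6pdx. The Srp54 and Zfp genes have near-identical copies that can share reads, so the values of single copies are uncertain. Runs were picked after their members were seen.

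The genes were grouped by 35 lists, and each count is set beside the 991 of 10825 genes with a promoter region (9.15%) that had a member. Histones had the largest share among the lists. Of 66 replication-dependent histone genes, which supply histones for DNA replication, 24 (36.4%) had a member. They fell into 7 of only 24 regions, since neighbouring histone genes share regions, and the copies can share reads. The mean rank was higher in scramble for 21 of these 24 regions, with a median difference of 16.6 percentile points against 0.0145 over all promoter regions. The region of Hist1h2ad and 4 further genes (chr13:23568506-23578261) ranked at 89.4, 74.6 and 87.5 in scramble, 66.4, 56.6 and 57.7 in CPT1a KO, 35.3, 38.3 and 38.7 with acetate and 60.8, 63.9 and 35.7 in KAT2a KO. That of Hist1h1a, Hist1h3a and Hist1h4a had 72.3 ± 3.61 in scramble and 48.5 to 63.6 elsewhere. Within GC bins the list fell to 4 of 66 genes (6.06%, beside 6.48% of all genes).

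Glycolysis and hypoxia genes had 6 of 36 (16.7%), and 7 of 36 (19.4%) within GC bins. Pkm, pyruvate kinase, had the largest gap of the list, 26.1, and ranked at 91.1, 88.8 and 87.5 in scramble, 61.4, 52.5 and 51.9 in CPT1a KO, 31.0, 32.0 and 46.9 with acetate and 14.2, 35.1 and 33.7 in KAT2a KO (chr9:59651928-59656321). Bnip3l, a receptor for the removal of mitochondria, ranked at 71.3, 68.1 and 61.8 in scramble and 9.98 to 40.4 elsewhere. The others were Pfkm, P4ha1, Hif1a and Pgk1, with gaps of 1.21 to 3.10. Of the NRF2 antioxidant genes 5 of 29 (17.2%) had a member and 4 (13.8%) within GC bins. Gclc, which starts glutathione synthesis, had 94.0 ± 3.37 in scramble and 25.8 to 75.2 elsewhere, and Ftl1, ferritin light chain, 90.0 ± 3.33 and 10.1 to 73.3, with Prdx1, G6pdx and Mgst1 as the other members.

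Genes of protein synthesis were members in several lists. Mitochondrial ribosomal proteins had 12 of 78 (15.4%) but 4 (5.13%) within GC bins, aminoacyl-tRNA synthetases 6 of 35 (17.1%) and 3 (8.57%), and cytosolic ribosomal proteins 9 of 80 (11.2%) and 13 (16.2%). Rps4x ranked at 93.6 ± 3.30 in scramble and 26.1 to 80.6 elsewhere. Splicing factors had 8 of 51 (15.7%), 6 (11.8%) within GC bins and 1 (1.96%, beside 7.08% of all genes) with bin medians subtracted. The large Zfp list had 39 of 298 (13.1%) and 20 (6.71%) within GC bins, and no member of it had a gap over 23.9. Low counts were those of the histone deacetylases and sirtuins (0 of 27), the interferon and antigen presentation genes (1 of 39, Nlrc5), the lysosome and autophagy genes (1 of 36, Npc2) and the subunits of oxidative phosphorylation (3 of 76, Cox7b, Cox5a and Ndufs1). Within GC bins these lists had 1 (3.7%), 2 (5.13%), 1 (2.78%) and 1 (1.32%), and with bin medians subtracted the deacetylases and sirtuins had 2 (7.41%, beside 7.08% of all genes).

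Counts for the lists closest to the question of the study differed. Of the genes for acetyl-CoA supply and histone acetyltransferases 3 of 38 (7.89%) had a member, namely Mdh1, Acss2 and Taf9, and 3 (7.89%) did within GC bins. Acss2, which makes acetyl-CoA from acetate, shares its region with Ggt7 and ranked at 80.1, 65.4 and 71.0 in scramble, 51.9, 28.4 and 31.0 in CPT1a KO, 26.9, 28.8 and 32.0 with acetate and 25.0, 27.7 and 5.02 in KAT2a KO. Its ranks with and without acetate overlapped. Fatty acid oxidation had 2 of 35 (5.71%), Acadm and Hsd17b10, and 3 (8.57%) within GC bins. NF-kB subunits, inhibitors and kinases had 4 of 33 (12.1%), but 6 (18.2%, beside 6.48% of all genes) within GC bins and 7 (21.2%, beside 7.08%) with bin medians subtracted. Rel, the c-Rel subunit, had the largest gap of the 4, 17.8, with 84.7 ± 1.37 in scramble and 41.7 to 65.3 elsewhere. The others were Ikbkg, which shares its region with G6pdx, Tnfaip3 and Tnip1. Of the NF-kB target genes 3 of 23 (13%) were members, Vcam1, Hif1a and Ptgs2, with gaps of 0.622 to 3.27. Within GC bins the list had 1 (4.35%), and with bin medians subtracted 0 (0.0%).

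Among genes of adhesion and matrix, 7 of 38 integrin and extracellular matrix genes (18.4%) had a member and 4 (10.5%) within GC bins. Spp1, osteopontin, ranked at 57, 45.1 and 80.4 in scramble, 4.17, 12.3 and 8.05 in CPT1a KO, 33.9, 33.4 and 28.9 with acetate and 10.4, 7.20 and 3.75 in KAT2a KO, so that the acetate group was next to scramble. Sparc, Itga1, Thbs1, P4ha1, Timp1 and Lamc1 were the others. Hippo and TGF-beta targets had 4 of 29 (13.8%) and 5 (17.2%) within GC bins. Of the 4, Ankrd1, a target of YAP, had a gap of 23.6. It ranked at 54.4 ± 9.70 in scramble and 0.998 to 19.6 elsewhere. Cell cycle and replication genes had 7 of 51 (13.7%) and 5 (9.8%) within GC bins. With bin medians subtracted they had 3 (5.88%, beside 7.08% of all genes). Rb1, the retinoblastoma gene, shares a region with Lpar6 that ranked at 98.8, 95.6 and 99.3 in scramble and at 34.5 to 73.6 elsewhere. The remaining lists ran from 0 of 10 (epithelial-mesenchymal transition) to 4 of 28 (epithelial junctions and keratins, 14.3%).

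**Figure D5:**
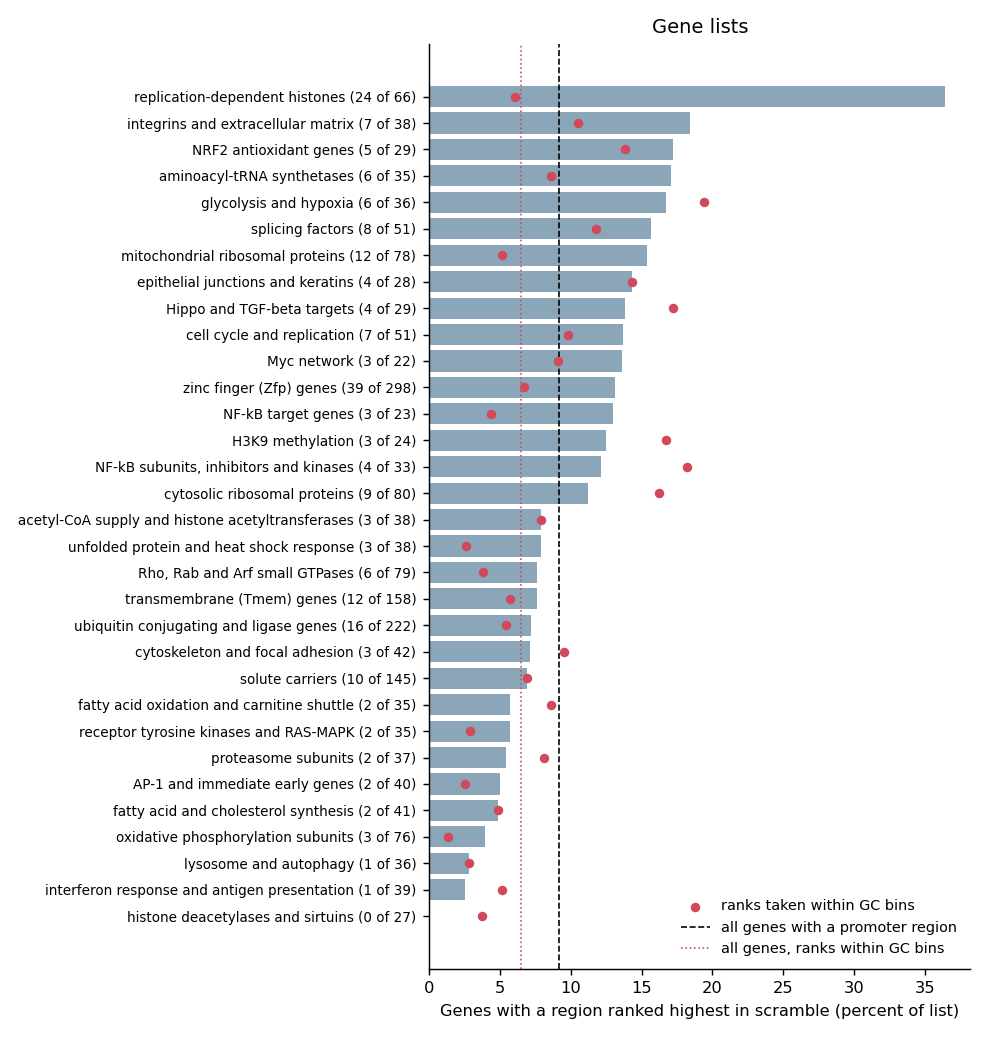
Share of the genes of each list of 20 or more genes (x axis, percent) that had a region ranked highest in scramble, as bars, with counts in the labels, and the share when ranks were taken within GC bins, as red points. The lines mark all genes, at 9.15% (dashed) and 6.48% within GC bins (dotted); the histone bar at 36.4% has its point at 6.06%.

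The 3 groups without a scramble guide were then compared over the members. The rule used their ranks only through the highest of the 9, and these comparisons are still not independent of it, so they are given as counts. The median ranks of the members in the libraries with and without acetate overlapped. The ranks of CPT1a KO + acetate lay above those of CPT1a KO without overlap in 66 members (7.75%, beside 5.8% of all promoter regions) and below in 52 (6.10%, beside 8.78%). The median difference of mean ranks, acetate minus no acetate, was 1.09 percentile points (quartiles -4.16 and 6.43) and -0.471 over all promoter regions. The pooled SD of the library medians over the members was 2.22. Tfap2a, a transcription factor of the AP-2 family, ranked at 54.0, 70.5 and 51.5 in CPT1a KO and 99.8, 98.3 and 99.8 with acetate. Zfp422 ranked at 7.98, 43.4 and 19 and at 68.0, 58.5 and 69.0, and Fam168b at 47.8, 37.2 and 50.3 and at 70.3, 79.3 and 88.2. In the other direction, Agbl3, a cytosolic carboxypeptidase, had 73.8, 83.1 and 84.3 in CPT1a KO and 62.3, 51.3 and 26.5 with acetate. The region of Taf9, Ak6 and Rad17 had 88.2, 78.4 and 88.4 and then 55.7, 75.7 and 38.2, and Mpp6 had 69.3, 36.7 and 55.6 and then 25.8, 28.8 and 30.8.

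The members ranked higher in KAT2a KO than in CPT1a KO. Their median rank in the 3 libraries was 41.0 ± 1.01 in KAT2a KO and 36.3 ± 2.24 in CPT1a KO (SD), and the libraries did not overlap. It was 38.1 ± 2.19 in CPT1a KO + acetate, where 1 library overlapped with KAT2a KO. Against CPT1a KO, 110 members (12.9%, beside 7.33% of all promoter regions) were higher and 38 (4.46%, beside 8.37%) lower, with a median difference of 2.21 (quartiles -2.82 and 9.62) and -0.241 over all. The pooled SD of the library medians was 1.74. Over all promoter regions, fold enrichment and GC content correlated at -0.207 to -0.219 in KAT2a KO and -0.0935 to -0.172 in CPT1a KO. In the 480 regions ranked lowest in scramble the median difference was -3.92. The part of GC content in the difference was not tested. Against CPT1a KO + acetate, 112 (13.1%, beside 9.21%) were higher and 33 (3.87%, beside 5.81%) lower, with a median of 1.83 (quartiles -3.26 and 8.28), 0.348 over all and an SD of 1.71. Leaving out a library of either group raises such counts over all promoter regions too, because fewer ranks have to be clear of each other: without CPT1a KO replicate 3, which had the lowest depth, 10.5% of members were lower in KAT2a KO than in CPT1a KO, beside 13.8% of all, and without CPT1a KO replicate 1, 21.9% were higher, beside 13.3% of all. Mndal, an interferon-inducible gene, ranked at 6.52, 10.8 and 29.9 in CPT1a KO and 51.3, 77.8 and 91.9 in KAT2a KO. Jmjd1c, a JmjC-domain demethylase homologue, had 38.3, 31.0 and 14.6 with acetate and 57, 70.0 and 68.9 in KAT2a KO, and Ddx21, an RNA helicase of the nucleolus, 27.2, 46.5 and 20.1 and then 70.1, 81.2 and 78.3. Rbm7 and Gm5617 share a region that went from 21.9, 8.73 and 12.9 to 46.9, 54.2 and 46.4. A region of 2010111I01Rik had 11.1, 23.1 and 41.7 in CPT1a KO and 41.9, 72.1 and 82.5 in KAT2a KO.

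Among the members lower in KAT2a KO, the shared region of Cbx3, which encodes the heterochromatin protein HP1 gamma, and Hnrnpa2b1 ranked at 94.9, 93.4 and 77.5 in CPT1a KO, 90.0, 92.9 and 92.3 with acetate and 63.6, 62.4 and 41.4 in KAT2a KO. Pkm was among them as well, with the values above. Gtdc1 had 72.6, 67.1 and 72.4 in CPT1a KO and 37.0, 37.7 and 55.7 in KAT2a KO. Kdm5a, an H3K4 demethylase that shares its region with Ccdc77, had 80.9, 75.7 and 71.6 with acetate and 51.6, 45.5 and 16.1 in KAT2a KO, and Ciao2b had 55.8, 64.5 and 57.2 and then 35.7, 32.5 and 26. Exact two-sided permutation tests were run for the 133 named members in each of the 3 comparisons. With 3 libraries against 3 the smallest p they allow is 0.1, which 84 of the 399 tests reached, and no p adjusted by Benjamini-Hochberg was below 0.475. Some members were named because their ranks did not overlap in a comparison, which fixed their p there. Nothing is therefore read from the 84. Over all promoter regions, ranks without overlap in a given direction held for 5.8% to 9.21%.

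Of the 3 groups, KAT2a KO had the highest mean rank in 411 members (48.2%, against 34.0% of all promoter regions) and CPT1a KO the lowest in 368 (43.2%, against 32.8%). The same rule applied to each of these groups gave fewer regions than to scramble. The 3 ranks of CPT1a KO lay above the other 9 libraries in 231 promoter regions (2.32%), those of CPT1a KO + acetate in 64 (0.642%) and those of KAT2a KO in 97 (0.973%).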

How the data were processed

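H3K9ac was profiled by ChIPmentation, in which the Tn5 transposase tags precipitated chromatin. The authors called peaks on each library alone and deposited narrowPeak lists with a fold enrichment (a ratio to local background), -log10 p, -log10 q and a score that is a rounding of the -log10 q; the deposited coordinates and summits are other columns. Their processing notes list Bowtie2 and MACS2 with mm10 and dm6, while the methods of the study name BWA and Picard, and the processing notes give no versions. The fly spike-in and the 12 input libraries were not used here, and labels and methods give different catalogue numbers for the antibody. Values were not scaled between libraries.

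Peaks on chromosomes 1 to 19 and X were merged at 1 bp of overlap, and regions were annotated with start sites of protein-coding genes in GENCODE M21 on GRCm38. A region was named for the start site nearest the median summit of its strongest peaks. Highest fold enrichments were turned into percentiles within each library (Python 3.11.15, pandas 2.3.3, scipy 1.17.1). Pileup and background were recovered by inverting the MACS2 formulas, and the procedures were tested on simulated data. The members and the gene lists were chosen with earlier results of these data known. Named were the 20 members with the largest gap, 3 on either side of the limit, the 3 with the largest difference in either direction in each comparison, up to 4 a gene list, and the 3 highest and lowest in scramble. A few items are not reported here. Alternatives and single libraries left out are given in the closing section. As the depth is in coverage and not in reads, no counting intervals are given, and p-values measure only the spread between these libraries.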

Additional observations from a re-analysis of the deposited data

How the results depend on the processing

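Which regions met the rule changed when GC content was taken into account and when a region was scored in another way. The number of regions that met the rule became 541 with the mean fold enrichment of the peaks. It became 255 when peaks had to cover at least 0.5 of a region, where only 3278 promoter regions were left. It ran from 871 to 1318 when single libraries were left out, with the highest without scramble replicate 2. Leaving out a library eases the rule, since fewer ranks have to be clear of each other, and 846 to 852 members stayed. The difference in median GC content of members and other promoter regions, -4.46 percentage points, became 1.78 with bin medians subtracted and -1.0 with ranks taken within GC bins, an alternative chosen after seeing the data because a subtracted median shifts the ends of the rank scale too far. It was -4.48 to -4.08 without single libraries. The median differences between groups stayed within the spread of replicates of their main value under all alternatives run and ran from 0.181 to 1.83 (CPT1a KO + acetate against CPT1a KO), 1.21 to 2.58 (KAT2a KO against CPT1a KO) and 0.867 to 2.41 (KAT2a KO against CPT1a KO + acetate) without single libraries. The lowest values of the first 2 were those without CPT1a KO replicate 3.

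The shares of members without overlap moved more, and the cause was not tested. For CPT1a KO + acetate against CPT1a KO, the share higher was 12.7% with -log10 p ranked, beside 8.42% of all promoter regions. With peaks covering at least 0.5 of the region it was 5.10%, beside 5.25%. The share lower was 2.96% with mean fold enrichment, beside 6.06%. For KAT2a KO against CPT1a KO, the share lower was 2.96% with mean fold enrichment, beside 6.72%. For KAT2a KO against CPT1a KO + acetate, the share lower was 7.17% with -log10 p, beside 8.4%. The share higher was 8.13% with mean fold enrichment, beside 6.87%. Without single libraries the shares higher ran from 7.31% to 14.8%, 11.6% to 21.9% and 12.4% to 21.3% in the 3 comparisons. The shares lower ran from 5.54% to 12.6%, 3.81% to 10.5% and 3.49% to 9.27%. Shares over all promoter regions rose as well when a library of either group was left out. At the highest shares higher they were 10.7%, 13.3% and 15.8%. At the highest shares lower they were 15.6%, 13.8% and 10.7%.

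Replicate numbers did not pair the libraries: the correlation of the deviations of same-numbered libraries from their group means was -0.0513 to 0.0769 over 18 pairs, and none was over 0.1. With a replicate block, which counts a region if all 3 same-numbered pairs moved one way and so asks for less than ranks without overlap, 16.9% of members were higher and 13.6% lower with acetate (12.9% and 17.7% of all promoter regions), 23.4% and 9.51% in KAT2a KO against CPT1a KO (14.3% and 16.4%) and 23% and 9.86% in KAT2a KO against CPT1a KO + acetate (17.3% and 12.8%). Scramble had the highest mean depth, and single depths overlapped between groups. At equal calling depth 979 regions met the rule, 780 of them members. Equal depth rescaled the fold enrichment of the deposited peaks and left the peaks called as they were. The part of depth was not tested. Any batch and the group cannot be told apart.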
